A study of Mus musculus with 4 samples.

Results

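The 9 genes described here encode the core machinery that makes and carries small RNAs in mouse germinal vesicle (GV) oocytes. They were chosen by name: Drosha and Dgcr8 of the nuclear Microprocessor, Dicer1 with its partners Tarbp2 and Prkra, and the Argonautes Ago1, Ago2, Ago3 and Ago4. All 9 are among the 16861 genes listed in each library. GV oocytes are fully grown and still arrested in meiotic prophase. In non-surrounded nucleolus (NSN) oocytes the chromatin is diffuse, whereas in surrounded nucleolus (SN) oocytes it is condensed in a ring around the nucleolus. The oocytes of both groups came from antral follicles of 3-week-old female C57BL/6J mice, were freed of cumulus cells, and were sorted by Hoechst staining in medium with milrinone. Smart-seq2, a protocol that copies polyadenylated RNA from few cells and amplifies the copies, gave 2 NSN and 2 SN libraries of 15 oocytes each, and the labels name neither a genotype nor a treatment.

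MicroRNA precursors are cut from longer nuclear transcripts by the Microprocessor, in which the RNase DROSHA is guided by the RNA-binding protein DGCR8. Dicer then cuts the exported hairpin, or long duplex RNA, to a short duplex, and an Argonaute takes up 1 strand of it and finds target RNAs by base pairing. Mouse oocytes are known for small interfering RNAs (siRNAs) that Dicer makes from retrotransposon and pseudogene duplexes, for a short Dicer form transcribed from a promoter inside the gene, and for weak repression by microRNAs.

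Ago2 is the Argonaute known to cut its targets, which needs a complete catalytic tetrad in its nuclease domain. The codon of the last residue of this tetrad is shown in capitals in the windows of 30 coding bases below. Not all of the 4 Argonautes share this codon, and their mRNA levels also differed. Each window lies in 1 coding exon, exon 18 of 19 in Ago1, Ago2 and Ago3 and exon 17 of 18 in Ago4, on the minus strand of GRCm39 (GENCODE). The windows are at chr4:126333670-126333699 for Ago1, chr15:72979049-72979078 for Ago2, chr4:126240459-126240488 for Ago3 and chr4:126390577-126390606 for Ago4.
Ago1: gcctactatgctCGCttggtggctttccgg
Ago2: gcttactatgctCACctggtggccttccga
Ago3: gcatattacgctCACctggtggcattcaga
Ago4: gcatattatgccCGGcttgtggcattccgg
Ago2 and Ago3 carried the same codon there, whereas Ago1 and Ago4 carried others. Over the 30 bases, Ago1 and Ago3 each differed from Ago2 at 5 bases and Ago4 at 8.

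Levels are given as FPKM, the read pairs counted on a gene per kilobase of its length and relative to the library total. The recovered library totals ranged from 17069772 to 17998361 read pairs, so that 3 read pairs on 1 kb of gene length equal 0.167 to 0.176 FPKM. Intervals and limits from read pairs reflect counting error alone, because PCR copies of 1 molecule are counted separately. SN was compared with NSN by limma on log2(FPKM + 0.5), over 11672 genes whose mean FPKM reached 0.5. Genes were called at a fold change of 1.2 or more with a p under 0.05 after Benjamini-Hochberg adjustment. Of all tested genes 7.93% were called, 5.95% as higher and 1.98% as lower in SN oocytes. The median gene was 0.14 higher in SN on the log2 scale. An exact permutation test of 2 libraries against 2 cannot give a two-sided p below 0.333. Nothing in the labels says that replicates came from separate animals, so p-values measure only the spread between these libraries. On the first principal component, which held 64.5% of the variance, NSN replicate 2 was displaced toward the SN mean by 33.7% of the distance between that mean and NSN replicate 1. All 10 oocyte markers were listed, with a summed FPKM of 20918 to 22274 in NSN and 14249 to 15023 in SN, and 7 of them were called. Of 12 granulosa and cumulus cell markers 8 were listed, with a summed FPKM of 9.48 to 13.6 in NSN and 13.7 to 13.8 in SN, and 0 were called. Amh, Amhr2, Foxl2 and Ptx3 of that list were not analysed here. The part of NSN replicate 2 and of these marker levels in the results below was not tested beyond the values given without each library.

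The 9 genes fell into a well expressed and a weakly expressed set. Dicer1, Tarbp2, Ago3 and Drosha had mean FPKM between the percentiles 67.0 and 79.3 of the listed genes. Ago2, Prkra and Dgcr8 lay near 1 FPKM, between the percentiles 38.9 and 44.9, with Ago4 at the percentile 20.6 and Ago1 at 0.243. Within NSN oocytes the order of the mean FPKM was Tarbp2, Dicer1, Ago3 and Drosha, where Tarbp2 overlapped Dicer1 and Dicer1 overlapped Ago3. Within SN oocytes the order was Dicer1, Ago3, Tarbp2 and Drosha, with no overlap between neighbours. In both groups Ago2, Prkra and Dgcr8 followed, and neighbours among these overlapped. The order of the leading genes depends on the gene length. The FPKM rest on a length of 1 transcript, 1625 bases for Tarbp2, 9851 for Dicer1 and 15595 for Ago3, while the annotated exons cover 4549, 16761 and 18936 bases. With the annotated length, the levels were 6.15 to 9.41 for Ago3, 5.22 to 8.92 for Dicer1 and 3.84 to 4.47 for Tarbp2, so that Ago3 had the highest mean in both groups and Tarbp2 lay below Dicer1 in every library. The ratio of the FPKM of 1 gene between libraries does not depend on this length.

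**Figure D1:**
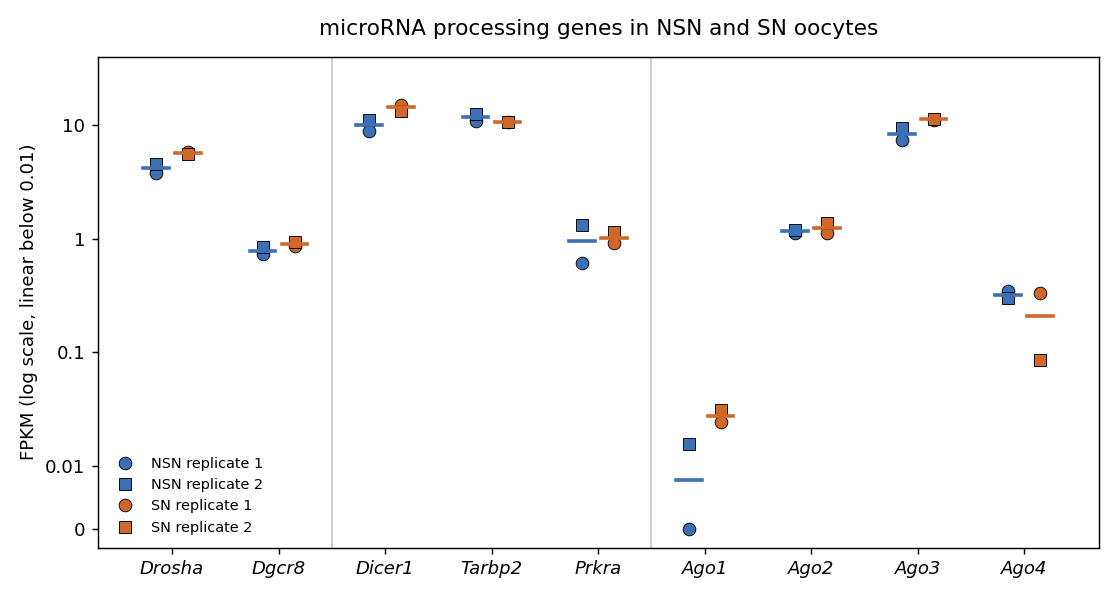
FPKM of the 9 genes in the 2 NSN and 2 SN libraries (points; circles replicate 1, squares replicate 2), with the group mean as a bar, on an axis that is logarithmic above 0.01 and linear below. Dicer1, Tarbp2 and Ago3 lie near 10 FPKM, Ago2, Prkra and Dgcr8 near 1, and Ago1 below 0.04 in every library.

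Of the Microprocessor genes, Drosha was the more abundant and had higher values in both SN libraries. Drosha (ENSMUSG00000022191.18, chr15:12824839-12935474, plus strand), the RNase of the complex, had 3.78 and 4.54 FPKM in NSN and 5.75 and 5.54 in SN, from 301, 372, 449 and 456 read pairs. The groups did not overlap, and the SN libraries were closer to each other than the NSN libraries were. As each library pools oocytes, fewer oocytes with a transcript and less of it per oocyte cannot be told apart. The means were 4.16 ± 0.538 and 5.65 ± 0.150 FPKM (SD, n = 2). The log2 fold change was 0.40 (limma; standard error, SE, 0.14, 95% interval 0.08 to 0.73), or 0.27 above the median gene, and it was not called (adjusted p = 0.105 by limma, unadjusted p = 0.0228). Dgcr8 (ENSMUSG00000022718.14, chr16:18069575-18107140, minus strand), the RNA-binding partner, had 0.731 and 0.840 FPKM in NSN and 0.854 and 0.926 in SN. These values come from 55, 65, 63 and 72 read pairs, and their counting intervals overlapped throughout, from 0.551 to 0.952 FPKM in NSN replicate 1 to 0.725 to 1.17 in SN replicate 2. Its log2 fold change of 0.11 (SE 0.17, 95% interval -0.30 to 0.53) was below that of the median gene (adjusted p = 0.684 by limma). Of the annotated exon bases of Dgcr8, 31.7% are shared with other genes, among them Trmt2a and the microRNA genes Mir1306 and Mir3618, so its read pairs are uncertain.

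The Dgcr8 transcript carries microRNA hairpins that the Microprocessor itself is known to cut, which is why the mature products of Mir1306 are shown here. The sequences are from RefSeq (GRCm38.p6), with the seed, bases 2 to 8, in capitals. The poly(A)-primed libraries measured the host transcript and not these mature microRNAs.
miR-1306-5p: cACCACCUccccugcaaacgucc
miR-1306-3p: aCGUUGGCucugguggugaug

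Dicer1 had the largest log2 fold change of the 7 tested genes, whereas Tarbp2, the best expressed Dicer partner, was slightly lower in both SN libraries. Dicer1 (ENSMUSG00000041415.12, chr12:104654001-104718211, minus strand), the RNase that cuts hairpins and long duplexes, had 8.89 and 11.1 FPKM in NSN and 15.2 and 13.4 in SN, from 1524, 1954, 2552 and 2383 read pairs. Both SN libraries lay above both NSN libraries, and NSN replicate 2 was the closer of the NSN libraries to SN. The means were 9.98 ± 1.55 and 14.3 ± 1.23 FPKM (SD, n = 2), a fold of 1.42. The log2 fold change was 0.50 (SE 0.14, 95% interval 0.18 to 0.83), or 0.37 above the median gene. It missed the threshold (adjusted p = 0.0676 by limma, unadjusted p = 0.00874), with adjusted p from 0.00657 to 0.309 over the 18 settings that kept all libraries, the one used included. The annotation holds 9 Dicer1 transcripts, none of which was matched here to the short oocyte form. As the values are per gene, full-length and short forms cannot be told apart.

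Tarbp2 and Prkra encode related RNA-binding proteins that hold precursors on Dicer. Tarbp2 (ENSMUSG00000023051.13, chr15:102426627-102432111, plus strand) had 10.9 and 12.5 FPKM in NSN and 10.7 in both SN libraries, from 308, 364, 298 and 314 read pairs. The SN values lay just under the lower NSN value. Its log2 fold change was -0.11 (SE 0.11, 95% interval -0.38 to 0.16, adjusted p = 0.515 by limma), or -0.25 relative to the median gene. Of its exon bases 7.25% are shared with Map3k12 on the other strand, and counting did not use strand. Prkra (ENSMUSG00000002731.8, chr2:76427715-76478405, minus strand) had 0.605 and 1.31 FPKM in NSN and 0.907 and 1.14 in SN, from only 17, 38, 25 and 33 read pairs. The NSN libraries lay on either side of the SN libraries, so the groups overlapped. Its log2 fold change was 0.10 with a 95% interval from -0.53 to 0.73 (SE 0.26, adjusted p = 0.821 by limma), the widest of the tested genes, which includes changes of either sign. Prkra shares 17.1% of its exon bases with Osbpl6 on the other strand.

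Ago3 supplied most of the Argonaute mRNA in every library, and Ago2 most of the rest. Ago3 (ENSMUSG00000028842.17, chr4:126225496-126323362, minus strand) had 7.47 and 9.37 FPKM in NSN and 11.2 and 11.4 in SN, from 2027, 2617, 2980 and 3208 read pairs. Both SN libraries were above both NSN libraries, and the SN values nearly coincided. The means were 8.42 ± 1.35 and 11.3 ± 0.166 FPKM (SD, n = 2). Its log2 fold change was 0.41 (SE 0.13, 95% interval 0.09 to 0.73), or 0.28 above the median gene, and it was not called (adjusted p = 0.0944 by limma, unadjusted p = 0.0187). Ago2 (ENSMUSG00000036698.13, chr15:72967693-73056784, minus strand), the Argonaute known as the slicer, had 1.12 and 1.202 FPKM in NSN and 1.12 and 1.37 in SN, from 268, 297, 264 and 340 read pairs. The groups overlapped, with SN replicate 1 level with NSN replicate 1. Its log2 fold change was 0.07 (SE 0.17, 95% interval -0.34 to 0.48, adjusted p = 0.806 by limma), and it was -0.039 after median scaling and -0.23 after correction for gene length, so no direction can be given.

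The other Argonautes, which lie beside Ago3 on chromosome 4, were below the filter of the test. Ago4 (ENSMUSG00000042500.13, chr4:126383334-126427406, minus strand) had 0.343 and 0.299 FPKM in NSN and 0.332 and 0.0850 in SN, from 39, 35, 37 and 10 read pairs. SN replicate 2 stood apart, with a 95% Poisson interval of 4.80 to 18.4 read pairs against 26.1 to 51.0 in SN replicate 1, while SN replicate 1 lay between the NSN libraries. Ago1 (ENSMUSG00000041530.19, chr4:126328805-126362498, minus strand) had 0 and 2 read pairs in NSN and 3 and 4 in SN. The 0 in NSN replicate 1 lies below the floor of 3 read pairs used here, which equals 0.0238 FPKM for Ago1 in that library. No fold is given for so few read pairs. When all listed genes were tested, the log2 fold changes were -0.23 for Ago4 (adjusted p = 0.486 by limma) and 0.06 for Ago1 (adjusted p = 0.722 by limma).

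By composition, Ago3 made up 83.7% and 86.1% of the summed Argonaute FPKM in NSN and 88.3% and 88.5% in SN. The share of Ago2 was 12.5% and 11.0% in NSN and 8.84% and 10.6% in SN. The difference, SN minus NSN, was -2.05 percentage points (means 11.8 ± 1.03% and 9.72 ± 1.24%, SD, n = 2), without overlap between groups, and the exact permutation test gave its smallest two-sided p of 0.333. Ago4 took 3.84% and 2.75% in NSN and 2.62% and 0.658% in SN, and Ago1 at most 0.238% in any library. The summed Argonaute FPKM was 8.92 and 10.9 in NSN and 12.7 and 12.9 in SN. In read pairs, which are not divided by gene length, Ago3 held 86.8% and 88.7% in NSN and 90.7% and 90.1% in SN. Shares of read pairs weigh longer genes more, and the length used was 15595 bases for Ago3, 13800 for Ago2 and 6537 for Ago4. Fewer transcripts of 1 gene and more RNA of the others cannot be told apart in shares of either kind.

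Ratios within a library do not depend on its scaling, and these were chosen after the levels were seen. They were not corrected for differences between libraries that vary with gene length. The length used was 1625 bases for Tarbp2, 4571 for Drosha, 9851 for Dicer1 and 15595 for Ago3. Dicer1 over Tarbp2 was 0.816 and 0.886 in NSN and 1.41 and 1.25 in SN. The SN mean was 1.57 times the NSN mean, with no overlap (exact permutation p = 0.333, two-sided, the smallest possible). Drosha over Tarbp2 was 0.347 and 0.363 in NSN and 0.536 and 0.516 in SN, and Ago3 over Tarbp2 was 0.686 and 0.749 against 1.04 and 1.06. These 3 ratios were thus higher in both SN libraries. This follows from the levels above, where Dicer1, Drosha and Ago3 were higher and Tarbp2 lower in both SN libraries. The 3 ratios also share the denominator Tarbp2, so they are not separate results. Dicer1 over Drosha overlapped between groups, at 2.35 and 2.44 in NSN and 2.64 and 2.42 in SN. So did Ago3 over Dicer1, which was 0.840 and 0.846 in NSN and 0.738 and 0.850 in SN. Drosha over Dgcr8 did not overlap, at 5.17 and 5.41 in NSN and 6.74 and 5.99 in SN, and Ago3 over Ago2 was 6.69 and 7.80 against 9.99 and 8.35. All of the ratios without overlap had the exact permutation p of 0.333.

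**Figure D2:**
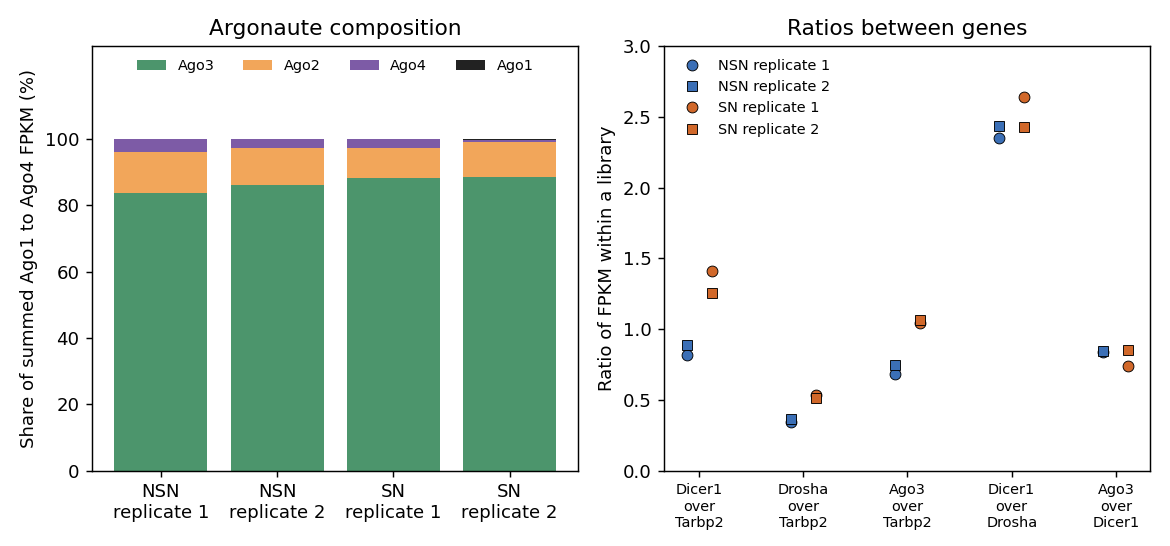
Left, the share of each Argonaute in the summed Ago1 to Ago4 FPKM (%, stacked bars) in each library. Right, ratios of FPKM between genes in the NSN and SN libraries (circles replicate 1, squares replicate 2). Ago3 takes 83.7% to 88.5% of the bars. The 3 ratios over Tarbp2 are higher in both SN libraries, which follows from the levels of the single genes.

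Counted over the list, 0 of the 7 tested genes were called by limma, against 7.93% of all tested genes. At an unadjusted p under 0.05, 3 of the 7 were higher in SN (Dicer1, Ago3 and Drosha) and 0 lower, against 23.8% and 7.86% of all tested genes. Those 3 were also the ones called by voom, a count model of limma, on read pairs recovered from the FPKM, which called 19.7% of all genes. By other rules, 1 of 3 was called at a mean FPKM of 5 or more (Dicer1, against 27.1%), 2 of 7 at an adjusted p under 0.1 (Dicer1 and Ago3, against 20.3%), 1 of 7 by voom after median scaling (Dicer1, against 14.6%), and 0 of 7 with the replicate number as a block (against 3.62%). Both SN libraries lay above both NSN libraries for 4 of the 7 (Dicer1, Drosha, Ago3 and Dgcr8) and below for 1 (Tarbp2), against 44.8% and 17.8% of all tested genes. The median log2 fold change of the 7 was 0.11, that of Dgcr8, below the 0.14 of all tested genes, and 3 of the 7 exceeded it. In the fit without NSN replicate 2 the middle gene was Prkra, with 17 read pairs in the remaining NSN library. The median of that fit thus rests on 1 weakly covered gene, and the median of all tested genes was 0.16 there. NSN replicate 2 weighed on these counts: without it, 2 of the 7 were called (Dicer1 and Ago3, against 14.4% of all genes), and the median was 0.46.

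**Figure D3:**
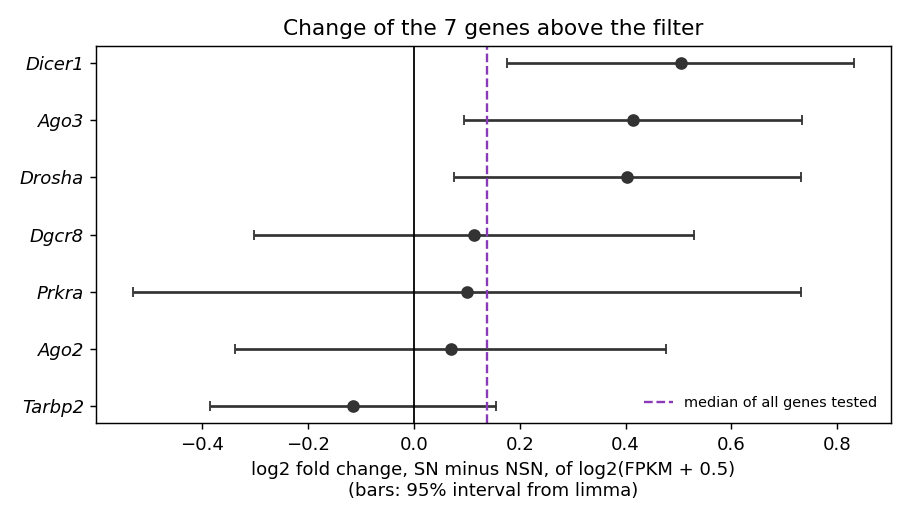
Log2 fold change (SN minus NSN) of the 7 genes above the filter, as points with 95% intervals from limma. The solid line marks 0 and the dashed line the median of all tested genes at 0.14. The intervals of Dicer1, Ago3 and Drosha lie above 0, and that of Dicer1 also lies above the median gene.

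The length of the genes and the scaling of the libraries changed the size of these differences. After correction of the log2 fold changes for gene length, Dicer1 was at 0.24, Drosha at 0.26 and Ago3 at 0.11, and Tarbp2 was at -0.20. Median scaling gave 0.36 for Dicer1, 0.26 for Drosha, 0.27 for Ago3 and -0.26 for Tarbp2. The median of all tested genes moved as well, from 0.14 to 0.004 with length correction and 0.005 with median scaling. Relative to that median, the settings used gave 0.37 for Dicer1, 0.27 for Drosha, 0.28 for Ago3 and -0.25 for Tarbp2. With each library left out in turn, Dicer1 ranged from 0.35 to 0.66, Drosha from 0.29 to 0.52, Ago3 from 0.26 to 0.57 and Tarbp2 from -0.21 to -0.02. In each case the highest value of Dicer1, Drosha and Ago3 came without NSN replicate 2 and the lowest without NSN replicate 1. The signs of these 4 genes stayed as they were in all of these settings.

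**Figure D4:**
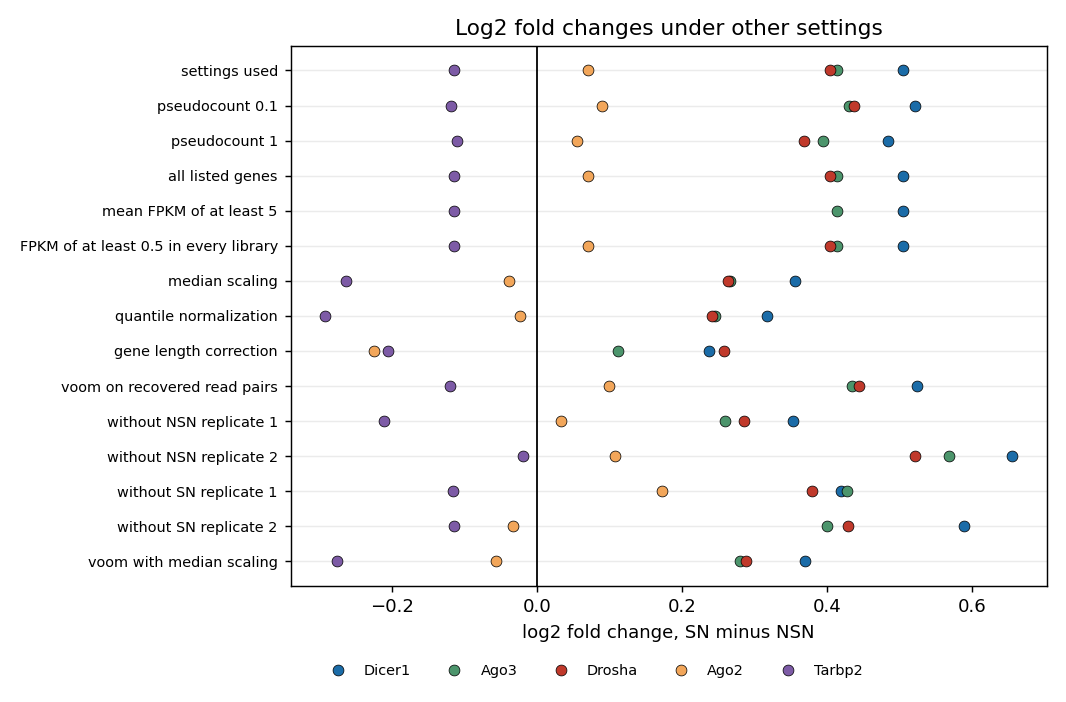
Log2 fold change (SN minus NSN) of Dicer1, Ago3, Drosha, Ago2 and Tarbp2 under the settings used and under other filters, scalings and left-out libraries, 1 row per setting. Drosha and Ago2 have no value at a mean FPKM of at least 5. Dicer1, Ago3 and Drosha stay above 0 and Tarbp2 below 0 in each row, while Ago2 lies on both sides.

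Of 38 other genes of small RNA pathways, 37 were listed and 35 tested. Only Ipo8 was called higher and only Rangap1 lower in SN, against 5.95% and 1.98% of all tested genes. Ipo8 encodes an importin known to bind Argonautes and bring them to their target mRNAs. It had 40.7 and 45.9 FPKM in NSN and 65.3 and 62.8 in SN, without overlap, and rose by a log2 fold change of 0.56 (SE 0.09, adjusted p = 0.0364 by limma). Rangap1, which encodes the activator of the Ran GTPase and whose mRNA is known to be matched by pseudogene-derived siRNAs in mouse oocytes, had 3.59 and 3.25 FPKM in NSN and 1.81 and 2.01 in SN. It fell by 0.70 on the log2 scale (SE 0.15, adjusted p = 0.0442 by limma). Both calls were lost after median scaling, where Ipo8 was at 0.41 (adjusted p = 0.0585 by limma) and Rangap1 at -0.83 (adjusted p = 0.0503 by limma). They were also lost after correction for gene length and without NSN replicate 1, SN replicate 1 or SN replicate 2. With each library left out, Ipo8 ranged from 0.48 to 0.65 and Rangap1 from -0.76 to -0.64, and voom with either scaling called both.

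Among genes for the cleavage and nuclear export of primary microRNAs, 0 of 7 tested were called, against 7.93% of all tested genes. The median log2 fold change was -0.29. At an unadjusted p under 0.05 there were 1 higher and 3 lower, against 23.8% and 7.86% of all tested genes. Xpo5, the exportin of precursor hairpins, had 6.15 and 6.58 FPKM in NSN and 6.33 and 5.92 in SN, with overlap between the groups (log2 fold change -0.05, SE 0.12, adjusted p = 0.791 by limma). Its partner Ran, the GTPase of nuclear transport, had 6.67 and 6.76 in NSN and 4.93 and 4.51 in SN but missed the threshold (log2 fold change -0.47, SE 0.12, adjusted p = 0.0608 by limma). Khsrp, which encodes a precursor-binding protein, was the 1 gene of the list that was higher at the unadjusted p (log2 fold change 0.50, SE 0.14, adjusted p = 0.0676 by limma). Ddx17, a helicase of the Microprocessor, was below the filter, with 0.383 to 0.629 FPKM over the 4 libraries. The helicase gene Ddx5 of the same list was far more abundant, at 97.5 and 89.1 FPKM in NSN and 74.6 and 70.8 in SN. It was lower in both SN libraries but missed the threshold (log2 fold change -0.36, SE 0.08, adjusted p = 0.0529 by limma).

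Of 9 genes for the loading of Argonautes and for their turnover, 0 were called, against 7.93% of all tested genes. Log2 fold changes below 0 were found for 8, against 33.3% of all tested genes, and the median was -0.19. The co-chaperone gene Fkbp4 had 8.01 and 6.65 FPKM in NSN and 4.84 in both SN libraries (log2 fold change -0.55, SE 0.13, adjusted p = 0.0548 by limma). Tsnax, which encodes a subunit of the nuclease that removes the passenger strand, had 45.0 and 36.4 in NSN and 30.7 and 29.5 in SN (log2 fold change -0.42, SE 0.12, adjusted p = 0.0704 by limma). These were the 2 genes of the list with an unadjusted p under 0.05, both lower in SN. Of all tested genes, 7.86% were lower and 23.8% higher at that p.

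Among 8 tested silencing effectors, 1 was called (Ipo8), against 7.93% of all tested genes, and the median log2 fold change was -0.07. Ajuba of this list was not analysed here. The GW182 proteins bind Argonautes and recruit the deadenylases that shorten target mRNAs. Tnrc6b was the most abundant of their genes, at 2.51 and 2.69 FPKM in NSN and 3.51 and 3.46 in SN (log2 fold change 0.36, SE 0.13, adjusted p = 0.125 by limma). Tnrc6c had 1.35 and 1.38 in NSN and 1.69 and 1.74 in SN (log2 fold change 0.25, SE 0.15, adjusted p = 0.304 by limma). In both of these genes the SN libraries lay above the NSN libraries. Tnrc6a had 0.955 and 0.716 in NSN and 0.709 and 0.788 in SN, with overlap (log2 fold change -0.09, SE 0.19, adjusted p = 0.764 by limma).

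Of the 7 tested genes for the tailing and decay of precursors and small RNAs, 0 were called, against 7.93% of all tested genes. In this list 5 were above the median gene, and the median log2 fold change was 0.22. Lin28a and Lin28b encode proteins known to bind let-7 precursors. Lin28a overlapped between groups, with 1.36 and 1.02 FPKM in NSN and 1.10 and 1.24 in SN (log2 fold change -0.01, SE 0.18, adjusted p = 0.973 by limma). Lin28b had 0.914 and 0.961 in NSN and 1.65 and 1.49 in SN but was not called (log2 fold change 0.52, SE 0.16, adjusted p = 0.0860 by limma). The uridyltransferase gene Tut4 was below the filter, at 0.0661 to 0.192 FPKM. Of the 4 mRNAs listed as matched by siRNAs in mouse oocytes, 1 was called (Rangap1), against 7.93% of all tested genes. Ppp4r1, a phosphatase subunit gene, had 2.95 and 2.51 FPKM in NSN and 1.87 and 1.67 in SN (log2 fold change -0.51, SE 0.16, adjusted p = 0.0860 by limma). Kif4, a kinesin gene, had 49.3 and 56.9 in NSN and 67.7 and 64.0 in SN (log2 fold change 0.31, SE 0.10, adjusted p = 0.0892 by limma), so that members of this list lay on both sides of 0. Kif4 and Pdzd11 of the list overlap each other on opposite strands.

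**Figure D5:**
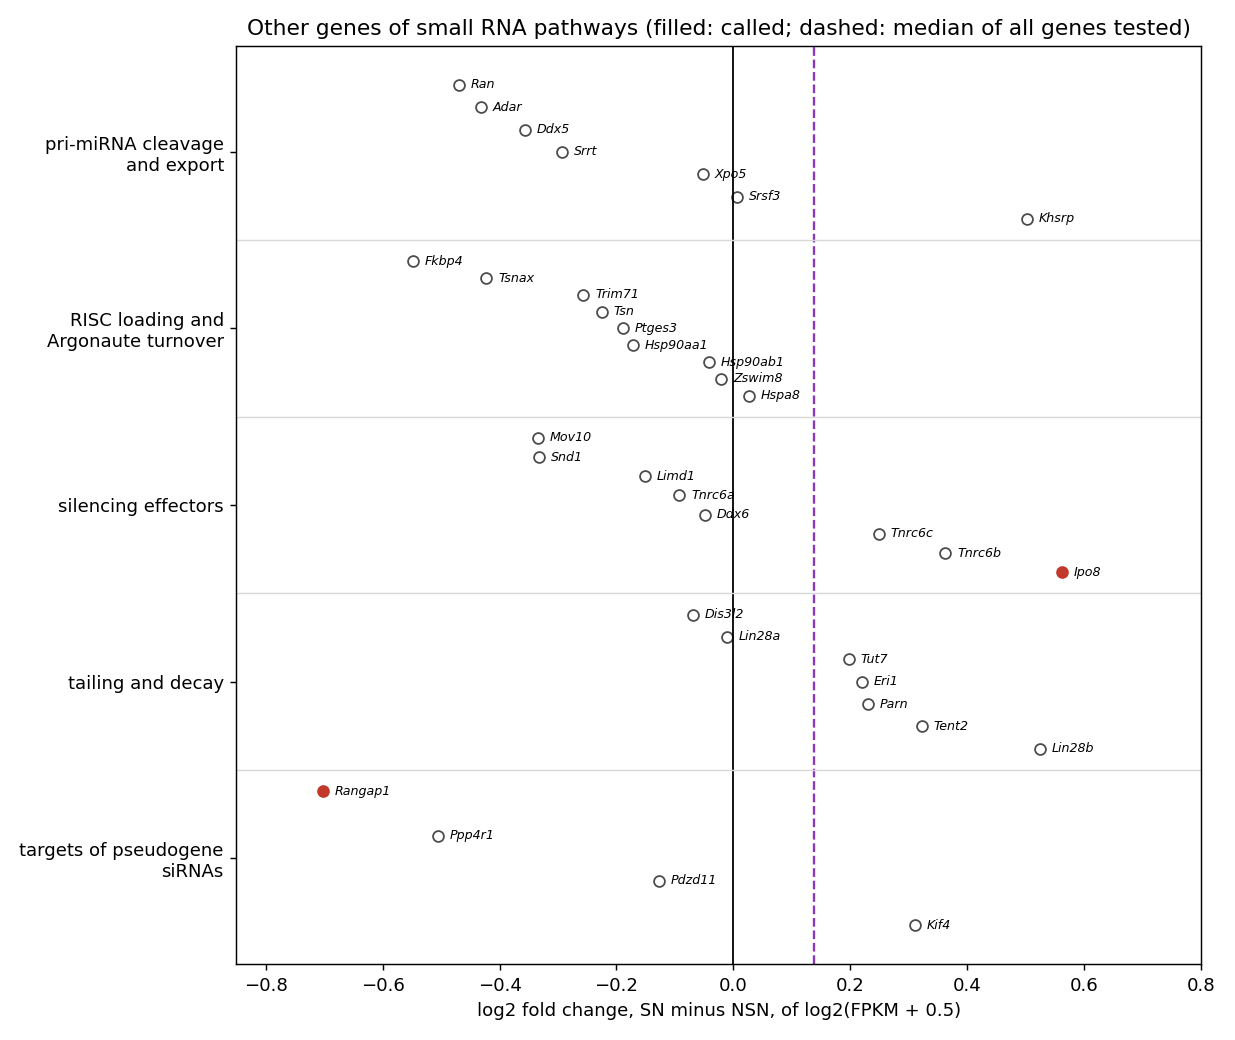
Log2 fold change (SN minus NSN) of the 35 tested genes of 5 lists of small RNA pathway genes, 1 point per gene with its symbol. Filled points are the 2 called genes, Ipo8 and Rangap1. The solid line marks 0 and the dashed line the median of all tested genes. Points of the loading list lie left of the dashed line, and most of those for tailing and decay lie right of it. The row named for pseudogene siRNAs also holds Kif4 and Pdzd11, which overlap each other on opposite strands.

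By distance between centred log2(FPKM + 0.5) profiles over the 4 libraries, the genes most like Dicer1 were Atxn2 (distance 0.0168), Srsf1 (0.0256) and Pdzd2 (0.0273). Atxn2 had 3.19 and 4.07 FPKM in NSN and 5.59 and 4.95 in SN. The pattern was common, as 920 genes lay within a distance of 0.2 of Dicer1. The genes most like Ago2 were Adal (0.0125), Rpap2 (0.0162) and Naca (0.0177), of 1852 genes within 0.2. With 4 libraries such likeness is a description of these libraries.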

How the data were processed

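RNA from GV oocytes was measured in 2 NSN and 2 SN libraries. The authors trimmed reads with Trim Galore 0.6.10, used HISAT2 for alignment to GRCm39, obtained exon counts of read pairs by featureCounts at a mapping quality of at least 10 and without strand, and deposited FPKM. Each file holds 1 FPKM value per gene and no counts. Library totals and whole read pairs were recovered from the FPKM for 99.881% of the genes (within 0.001 read pair), and the listed genes held 97.96% to 97.98% of each total. The replicates of a group differed by more than sampling noise (chi-square per gene of 7.16 in NSN and 7.93 in SN).

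Values were taken as log2(FPKM + 0.5), which understates the change of low genes, and SN was compared with NSN by limma 3.58.1 in R 4.3.3 with a variance trend, for genes whose mean FPKM reached 0.5. All 4 libraries entered the fit. The procedure was also run on simulated data without a shift of the median gene, so that run does not cover the shift seen here. Single ratios and shares were compared by exact permutation (scipy 1.17.1, Python 3.11.15). Gene positions came from GENCODE on GRCm39 and microRNA sequences from RefSeq. The genes named are the 9 members, every called gene of the 5 wider lists, Xpo5, the Tnrc6 genes and Lin28a, and the 3 nearest profiles of Dicer1 and Ago2. Other genes named from the wider lists were chosen after their values were seen. The members and lists were chosen with earlier results of these data known. The protocol names 3 samples per group, and 2 per group were analysed here. Other pseudocounts, filters, scalings, thresholds and variance models, a correction for gene length, the replicate number as a block, voom on the recovered read pairs, and each library left out were tried as alternatives.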

Additional observations from a re-analysis of the deposited data

How the results depend on the processing

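The number of the 9 genes called was 0 with the settings used. It was 1 at a mean FPKM of at least 5 (Dicer1, of 3 tested), 3 with voom on recovered read pairs, 2 at an adjusted p under 0.1 (Dicer1 and Ago3), 1 with voom and median scaling, which was added after the data were seen (Dicer1), and 0 to 2 with each library left out. It was 0 under the other settings. Of the wider lists, 2 of 35 were called with the settings used, against 7.93% of all genes. The count was 0 when every listed gene was tested, or with median scaling, quantile normalization or no variance trend. It was also 0 with gene length correction, with and without the replicate block, or at a fold of at least 2. It was 4 when every library had to reach an FPKM of 0.5 (against 1247 of 10600 genes) and 4 with a robust trend (against 1083 of 11672). At a mean FPKM of at least 5 it was 6 of 19 (2 higher, 4 lower), against 27.1%. At an adjusted p under 0.1 it was 10 of 35 (4 higher, 6 lower), against 20.3%. Voom called 13 of 35 (5 higher, 8 lower), against 19.7%. Voom with median scaling called 13 of 35 (1 higher, 12 lower), against 14.6%. With the replicate number as a block 1 was called (Ipo8) and 0 of the 9 genes. With all listed genes, with no variance trend, and with length correction and the block, 0 of all genes were called, so counts of 0 there say nothing about these genes. The differences between replicates were not shared by the groups across genes (correlation of the deviations -0.07). Whether a replicate number marks a shared collection or batch was not tested. Over all tested genes, 75.1% of the 926 calls were higher in SN, but 28.6% of the 234 calls after median scaling. The median log2 fold change of the tested members was 0.41 at a mean FPKM of at least 5, where 3 genes remained. It lay between 0.053 and 0.46 when single libraries were left out. The 0.46, without NSN replicate 2, was the value of Prkra, and the median of all tested genes was 0.16 in that fit. The difference in the Ago2 share ranged from -2.92 to -1.17 percentage points over the left-out libraries.

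Signs turned for 3 genes near 0. Ago2 was at -0.039 with median scaling, -0.023 with quantile normalization, -0.23 with length correction in fits with and without the block, -0.056 with voom and median scaling, and between -0.033 (without SN replicate 2) and 0.17 over the left-out libraries. Dgcr8 was at -0.019 with length correction in fits with and without the block. Prkra lay between -0.26 (without NSN replicate 1) and 0.46 over the left-out libraries, and was at -0.0088 without SN replicate 2. The cause was not tested. In the fits without a library, the lone library of a group was assumed to vary like the others. Ago1, Ago4, Prkra and Dgcr8 had at most 72 read pairs in any library.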

Other observations

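Of genes named for microRNAs, 6 were listed, 3 were tested and 0 were called by limma, with 1 at an unadjusted p under 0.05, against 7.93% and 31.7% of all tested genes. Of the tested genes, Mir146 had 3 and 2 read pairs in NSN and 2 and 6 in SN. Mir7035 had 5 and 3 in NSN and 12 and 3 in SN. Most of these counts lie near the floor of 3 read pairs, so only Mir22hg was well covered among the tested genes. Mir22hg, the host transcript of miR-22, was the best expressed, at 13.2 and 13.7 FPKM in NSN and 16.1 and 18.5 in SN, from 201, 215, 241 and 292 read pairs. Both SN libraries lay above both NSN libraries, and the log2 fold change was 0.35 (SE 0.11, adjusted p = 0.0877 by limma). The mature products of its hairpin are shown with the seed, bases 2 to 8, in capitals (RefSeq, GRCm38.p6), and were not measured in these poly(A)-primed libraries.
miR-22-5p: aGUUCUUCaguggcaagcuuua
miR-22-3p: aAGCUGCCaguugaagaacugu
Mir155hg had 7 and 2 read pairs in NSN and 0 and 2 in SN, and Mir17hg had 1 and 3 in NSN and 4 and 3 in SN. Mir100hg overlapped between groups, with 28 and 33 read pairs in NSN and 30 and 32 in SN.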
